A study of Mus musculus with 13 samples.

Results

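A set of 9 genes that mark B lymphocytes and plasma cells was followed through RNA-seq libraries of 13 whole mouse livers. They were taken by symbol from the 22048 genes of the count table, after each Ensembl identifier had been paired with its symbol, and all 9 genes were found. Of these, 7 mark mature B cells (Cd79a, Cd79b, Ms4a1, Pax5, Cd22, Blk and Fcrla) and 2 are high in plasma cells (Jchain and Mzb1).

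The labels give 6 control livers that were not depleted of hepatic stellate cells, 4 livers depleted of these cells, and 3 livers taken 72 h after partial hepatectomy. Control replicates 1, 2 and 6 were male and 3, 4 and 5 female. Depleted replicate 3 was male and the other 3 female. Hepatectomy replicates 1 and 2 were male and replicate 3 female. Strain, age and the agent or allele used for depletion are not given in the sources used here. Hepatic stellate cells wrap the liver's sinusoids and hold most of its vitamin A, and partial hepatectomy removes part of the liver so that the rest regrows. The labels do not say that each library came from a separate cohort or day, so the p-values measure the spread between these livers alone. Because whole livers were sequenced, more cells of a type and more RNA per cell cannot be told apart.

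B cells carry an antigen receptor that signals through the Cd79a and Cd79b chains, under the control of coreceptors such as Cd22 and of Src family kinases such as Blk. Pax5 is the transcription factor that commits precursors to the B lineage and is shut off when a B cell becomes an antibody-secreting plasma cell. Jchain links secreted IgM and IgA into polymers, and Mzb1 is an endoplasmic reticulum protein that helps antibody assembly and secretion. The adult liver holds B cells among its resident lymphocytes, and IgA-secreting plasma cells can lodge there.

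In the mouse genome GRCm38, Cd79a lies at chr7:24897381-24902197 on the plus strand. The others placed here lie on the minus strand: Cd79b at chr11:106311341-106314762, Ms4a1 at chr19:11249675-11266241, Pax5 at chr4:44524757-44710487, Cd22 at chr7:30865402-30880342, Blk at chr14:63372836-63417037, Fcrla at chr1:170917576-170927583 and Jchain at chr5:88519809-88527891. GENCODE M21 places antisense genes over Ms4a1, Pax5 and Cd22, and how reads in such overlaps were assigned is not given in the sources used here.

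Because the 9 genes rose together in the livers described below, the DNA just upstream of some of their starts is shown for 3 B cell genes and 1 plasma cell gene. RefSeq start sites on GRCm38.p6 were matched for 5 of the 9 genes (Cd79a, Pax5, Cd22, Fcrla and Jchain). Each stretch is written 5′ to 3′ on the gene's strand and is the longest stretch of the 250 bases upstream of the RefSeq start that no GENCODE M21 exon covers. The Cd79a stretch runs from -250 to -117 and that of Cd22 from -148 to -1, while those of Fcrla and Jchain are whole. The RefSeq starts of Cd79a and Cd22 lie downstream of their GENCODE starts, and the Cd22 stretch lies within the gene bounds given above. Capitals mark CAGGTG, an E-box, or CCCNNGGG, the core of the palindrome bound by early B cell factor.
Cd79a, chr7:24897247-24897380, plus strand: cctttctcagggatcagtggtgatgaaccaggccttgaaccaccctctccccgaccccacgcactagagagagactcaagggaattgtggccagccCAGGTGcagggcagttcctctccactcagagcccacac
Cd22, chr7:30879029-30879176, minus strand: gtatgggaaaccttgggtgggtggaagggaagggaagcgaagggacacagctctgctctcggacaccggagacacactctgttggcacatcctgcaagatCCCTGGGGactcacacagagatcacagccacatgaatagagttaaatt
Fcrla, chr1:170927584-170927833, minus strand: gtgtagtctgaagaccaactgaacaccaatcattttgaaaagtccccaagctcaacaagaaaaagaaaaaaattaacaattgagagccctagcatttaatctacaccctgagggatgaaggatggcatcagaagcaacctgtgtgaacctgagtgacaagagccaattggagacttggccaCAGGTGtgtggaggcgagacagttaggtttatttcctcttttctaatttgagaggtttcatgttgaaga
Jchain, chr5:88527898-88528147, minus strand: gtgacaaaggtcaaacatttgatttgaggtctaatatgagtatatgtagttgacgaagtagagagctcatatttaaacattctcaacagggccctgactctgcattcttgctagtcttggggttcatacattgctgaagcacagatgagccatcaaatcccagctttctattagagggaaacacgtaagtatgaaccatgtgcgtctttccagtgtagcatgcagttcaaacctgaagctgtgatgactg

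Over the full 250 bases, searched on both strands, the E-box CAGGTG was found upstream of Cd79a, Cd22 and Fcrla, for Cd22 in the exonic part not printed. It began at position -154 from the start of Cd79a and at -69 from that of Fcrla, and 17.2% of 32851 mouse promoter windows of this length hold it. The core CCCNNGGG was found only upstream of Cd22 among the 5 matched genes, at positions -48 to -41, and 11.8% of all windows hold it. The longer form of that palindrome, with a T before the core and an A after it, also matched there, at -49 to -40, and 0.779% of windows hold it. The immunoglobulin octamer ATGCAAAT (1.6% of windows) and the PU.1 core GAGGAAGT (2.44%) were found upstream of none of the 5. Jchain and Pax5 held none of these motifs. The E-box and the core do not overlap each other in these windows.

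Sequencing depth was 35360991 to 42784362 counts per control, 37848305 to 51008737 per depleted liver and 39633635 to 46228433 per hepatectomy liver. A count of 0 allows up to 3 counts, which are worth 0.0524 to 0.09 CPM (the count as a share of its library's total, scaled to a common total of 1e+06 and between libraries by TMM), depending on the library. All 8 hepatic stellate cell markers were called lower in depleted livers, and their summed level was 13.5 to 47.2 CPM there against 192 to 542 CPM in controls. The hepatocyte markers summed to 65900 to 177000 CPM over all 13 livers. 2 libraries stood apart from their groups before any result below. Control replicate 6 had 12.8 CPM for the sum of 5 leukocyte genes (Ptprc, Coro1a, Laptm5, Cd52 and Rac2), where the other controls had 41.3 to 59.6 CPM. Hepatectomy replicate 2 had 18.9 CPM for that sum, against 39.7 and 59.4 CPM in the other 2, and both libraries were also low in Kupffer cell markers (52.2 and 58.3 CPM). The results that rest on these libraries are given with and without them.

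The first question was what happened to B cell transcripts in livers that had lost their stellate cells. All 9 genes rose in depleted livers relative to controls, at an adjusted p under 0.05 in edgeR's quasi-likelihood test over 13831 genes. In the same comparison 18.9% of all genes tested were called higher and 15.0% lower. For each of the 9 genes every depleted liver lay above every control, which 16.5% of all genes tested also showed. The median log2 fold change was 2.34 over the 9 genes and -0.03 over all genes tested. Mzb1 passed the low-count filter only through the depleted livers (at least 0.247 CPM in 1 of 6 controls, 4 of 4 depleted and 0 of 3 hepatectomy livers). It therefore had to differ, and its call adds nothing to the count. The other 8 genes reached that level in 4 or more controls as well. Without control replicate 6 and hepatectomy replicate 2, an alternative chosen after the data were seen, all 9 were again called higher, from 1.77 for Pax5 to 4.06 for Mzb1.

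**Figure D1:**
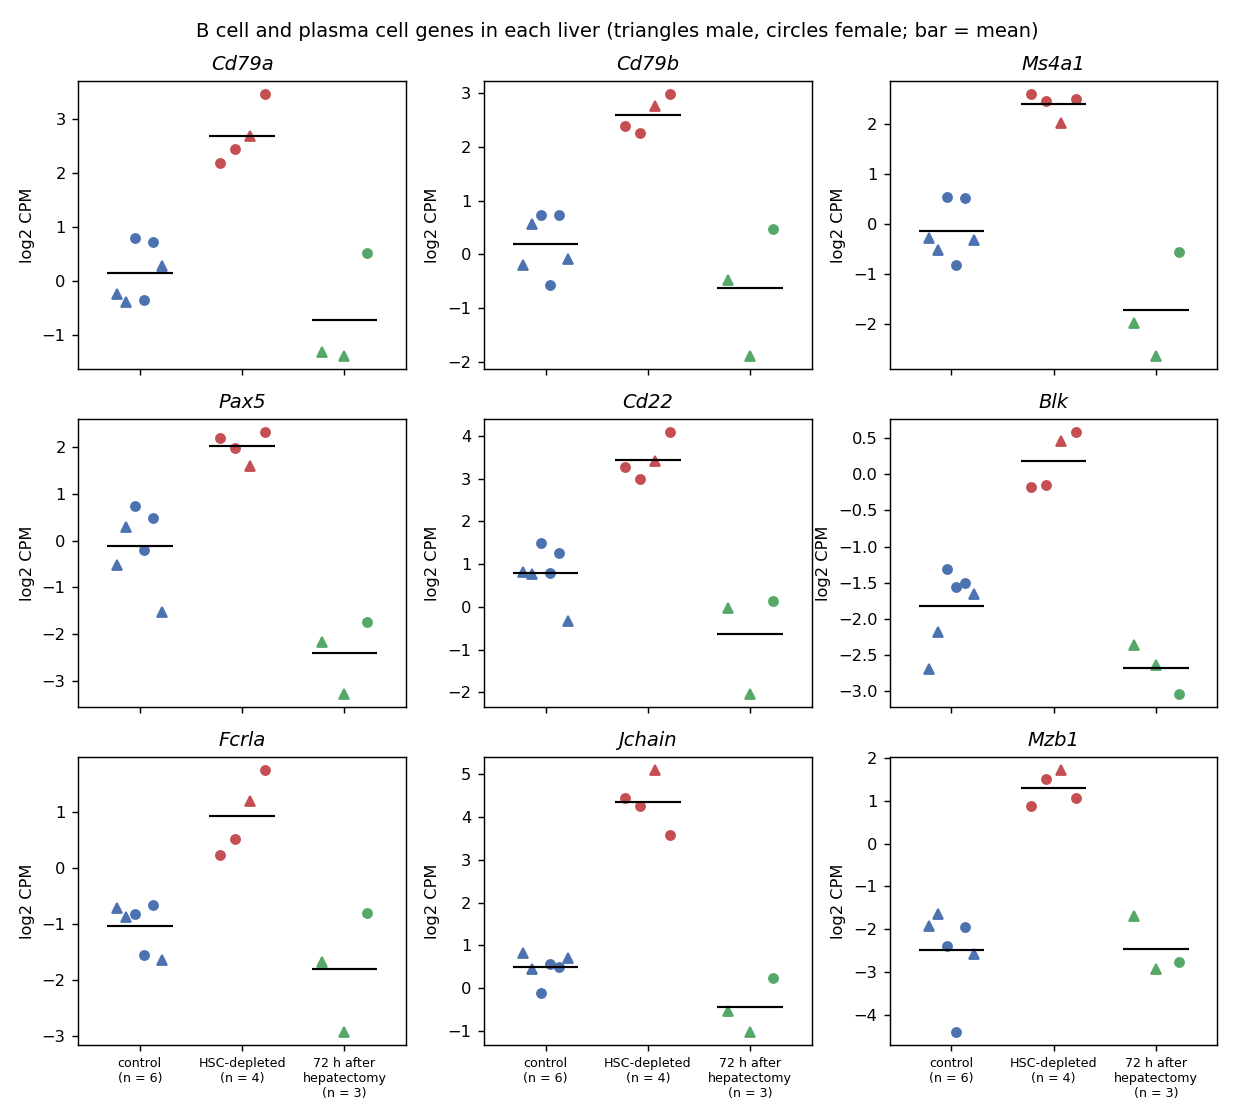
Level of each of the 9 genes in each of the 13 livers, as log2 CPM with a prior count of 2. Triangles are male and circles female livers, and bars are group means; the 4 depleted livers lie above all controls and all hepatectomy livers in every panel.

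The chains of the receptor complex came first. Cd79a stood at 0.717 to 1.7 CPM in controls, with a median of 0.987 CPM. Its level was 4.52, 5.4, 6.39 and 11.1 CPM in depleted replicates 1 to 4 and 0.353, 0.337 and 1.4 CPM in hepatectomy replicates 1 to 3. Depleted replicate 4 was the highest, and hepatectomy replicate 3, the female, lay within the control range while both males lay below it. The log2 fold change of depleted against control was 2.47 ± 0.38 (SE; edgeR adjusted p 0.000307). Cd79b, its partner chain, stood at 0.629 to 1.61 CPM in controls, with a median of 1.17 CPM. It was at 5.18, 4.73, 6.71 and 7.86 CPM in depleted livers and at 0.676, 0.225 and 1.35 CPM after hepatectomy. The difference between depleted and control livers was 2.31 ± 0.39 on the log2 scale (edgeR adjusted p 0.000663). Cd79b counts per Cd79a count had a median of 0.972 in controls (0.769 to 2.0), of 0.963 in depleted livers (lowest 0.71) and of 0.964 after hepatectomy (0.667 to 1.92).

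Among the surface proteins and coreceptors, Cd22 is an inhibitory lectin that dampens receptor signals. Cd22 stood at 0.75 to 2.79 CPM in controls (median 1.7 CPM), and the lowest of these was control replicate 6. Depleted livers had 9.68, 7.93, 10.7 and 17.0 CPM, and hepatectomy livers 0.941, 0.196 and 1.05 CPM. The log2 fold change between depleted and control livers was 2.54 ± 0.37 (edgeR adjusted p 0.00025), the largest of the 7 B cell genes. Ms4a1 encodes CD20, a membrane protein of mature B cells that plasma cells lose. It stood at 0.517 to 1.39 CPM in controls (median 0.764 CPM), at 5.96, 5.47, 3.98 and 5.59 CPM in depleted livers, and at 0.206, 0.112 and 0.624 CPM after hepatectomy. Its rise was 2.34 ± 0.33 on the log2 scale, with an edgeR adjusted p of 0.000178. The male depleted liver was the lowest of its group for Ms4a1, as it was for Pax5.

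Of the intracellular B cell genes, Pax5 stood at 0.3 to 1.63 CPM in controls, with a median of 1.01 CPM. The lowest control was replicate 6, with 10 counts. Depleted livers had 4.52, 3.9, 2.99 and 4.95 CPM, a log2 difference of 1.88 ± 0.36 (edgeR adjusted p 0.00149), the smallest among the 9. Blk, the Src family kinase, was sparse, with 4 to 15 counts per control, 38 to 76 per depleted liver and 3 to 5 per hepatectomy liver. In CPM that is 0.107 to 0.354 (median 0.281) in controls, then 0.835, 0.851, 1.33 and 1.45 in depleted livers and 0.147, 0.112 and 0.0748 after hepatectomy. Its rise in depleted livers was 2.13 ± 0.37 on the log2 scale (edgeR adjusted p 0.000813). Fcrla is an Fc receptor-like protein kept inside the B cell. It stood at 0.27 to 0.585 CPM in controls (median 0.507 CPM), at 1.11, 1.39, 2.22 and 3.3 CPM in depleted livers and at 0.265, 0.0842 and 0.524 CPM after hepatectomy. Depleted replicate 4 was highest here too, and the log2 difference was 2.07 ± 0.45 (edgeR adjusted p 0.00341).

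Of the plasma cell genes, Jchain had a larger fitted difference between depleted and control livers than any of the 7 B cell genes. Jchain stood at 0.874 to 1.71 CPM in controls, with a median of 1.4 CPM. It was at 21.7, 18.8, 34.1 and 11.9 CPM in depleted livers and at 0.647, 0.449 and 1.12 CPM after hepatectomy. The male depleted liver was the highest and depleted replicate 4 the lowest, the reverse of the order those 2 livers had for Ms4a1 and Pax5. The log2 fold change was 4.01 ± 0.31, with an edgeR adjusted p of 3.23e-06. Mzb1 lies on the minus strand at chr18:35647267-35649367 and overlaps another coding gene, SPATA24, on the same strand. The Mzb1 counts carry the uncertainty of how shared reads were assigned. It had 0 to 11 counts in controls, the 0 being in replicate 4, where 3 counts would be 0.0674 CPM. Its level was 0 to 0.272 CPM in controls (median 0.176 CPM), 1.78, 2.8, 3.25 and 2.05 CPM in depleted livers and 0.265, 0.0842 and 0.0998 CPM after hepatectomy. The difference between depleted and control livers was 4.13 ± 0.55 on the log2 scale (edgeR adjusted p 0.000123), in a gene that the filter kept through the depleted livers alone.

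The second question was whether livers at 72 h after partial hepatectomy, in which 0 of 8 stellate cell markers passed the test, showed the same shift. In hepatectomy livers 0 of the 9 genes were called higher than in controls by edgeR, and 0 at an unadjusted p under 0.05. DESeq2 and limma-voom also gave 0 higher. Lower calls were 2 by edgeR (5 at an unadjusted p under 0.05), 3 by DESeq2 and 1 by limma-voom. Over all genes tested 6.06% were called higher and 2.36% lower, and the median log2 fold change was -0.89 over the 9 genes against -0.02 over all. Pax5 fell, with 0.176, 0.0561 and 0.249 CPM in hepatectomy replicates 1 to 3, all below the lowest control. These values rest on 2 to 10 counts per liver. The log2 fold change was -2.49 ± 0.50 (edgeR adjusted p 0.0108), and Pax5 was the only one of the 9 whose hepatectomy livers all lay below all controls, which 6.25% of all genes tested did. Without both control replicate 6 and hepatectomy replicate 2, Pax5 was still called lower (-2.34, edgeR adjusted p 0.0186), and Ms4a1 was not (-1.17, 0.177).

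Ms4a1 also fell, with a log2 fold change of -1.51 ± 0.41 (edgeR adjusted p 0.0408), but its hepatectomy and control ranges overlapped. With the replicate number as a block the value was -1.58 with an edgeR adjusted p of 0.0852, which is no call. The Ms4a1 call was also lost without control replicates 1, 2, 3, 5 or 6 or hepatectomy replicates 1 or 2, each left out alone, with values from -1.51 to -1.20. The other 7 genes had values below 0 that did not pass the test: Cd22 -1.24 ± 0.46, Blk -1.12 ± 0.51, Jchain -0.89 ± 0.36, Cd79a -0.70 ± 0.44, Cd79b -0.64 ± 0.46, Fcrla -0.63 ± 0.54 and Mzb1 -0.21 ± 0.68. Their edgeR adjusted p ran from 0.116 to 0.89. Without hepatectomy replicate 3, the female liver, Jchain passed at -1.60 (edgeR adjusted p 0.0228), so 1 liver decides that call. Without that liver Cd79a stood at -1.45, Cd79b at -1.31, Fcrla at -1.38 and Ms4a1 at -2.17, of which only Ms4a1 passed (edgeR adjusted p 0.0221). Leaving out hepatectomy replicate 2 instead gave values nearer to no change for Cd79a (-0.46), Cd79b (-0.23), Fcrla (-0.21), Jchain (-0.58) and Cd22 (-0.84), but not for Blk (-1.15). Without control replicate 6 as well, Cd79a was at -0.37, Cd79b at -0.27, Fcrla at -0.3 and Jchain at -0.57. None of these values passed. Blk rests on 3 to 5 counts per hepatectomy liver.

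**Figure D2:**
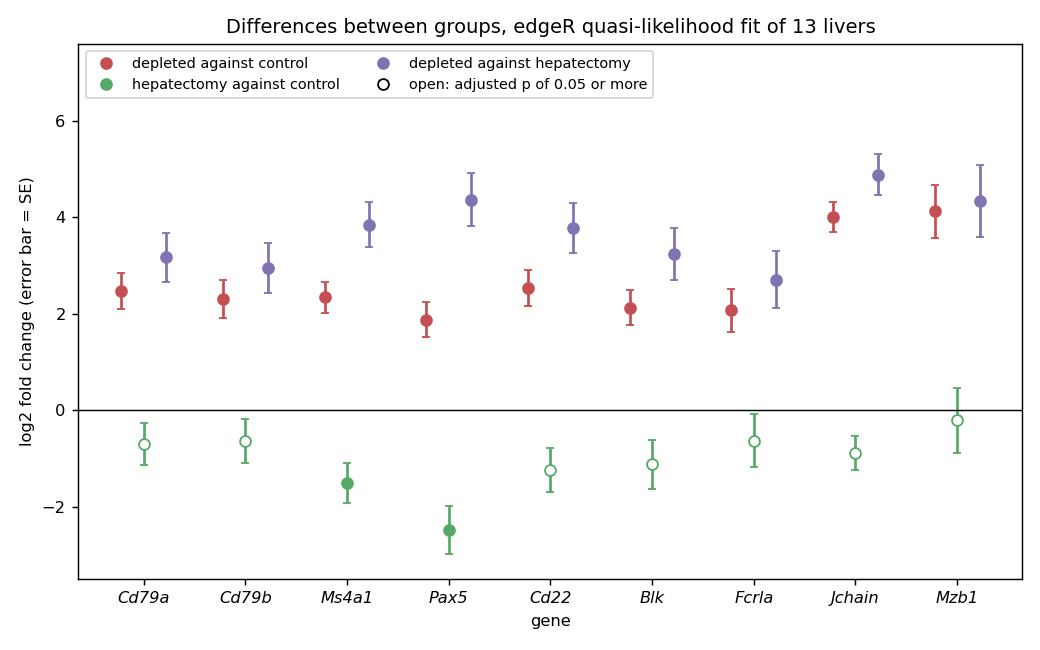
Log2 fold change with its standard error for each gene in the 3 comparisons, from the edgeR fit over 13 livers; open symbols have an adjusted p of 0.05 or more. All 9 genes were higher in depleted livers than in both other groups, and only Pax5 and Ms4a1 were called lower after hepatectomy.

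Depleted and hepatectomy livers were also compared directly. All 9 genes were called higher in depleted livers, against 13.3% of all genes tested called higher and 10.1% called lower. Mzb1, which entered the test only through the depleted livers, had to differ here as well. No range overlapped for any of the other 8, or for Mzb1, where 18.1% of all genes tested had every depleted liver above every hepatectomy liver. The log2 difference was 4.89 ± 0.43 for Jchain, 4.37 ± 0.55 for Pax5, 4.34 ± 0.74 for Mzb1 and 3.85 ± 0.46 for Ms4a1. It was 3.78 ± 0.52 for Cd22, 3.24 ± 0.54 for Blk, 3.17 ± 0.50 for Cd79a, 2.95 ± 0.52 for Cd79b and 2.71 ± 0.59 for Fcrla. The edgeR adjusted p ran from 3.65e-05 for Jchain to 0.00617 for Fcrla. Each pair of the 3 comparisons shares a group of livers, the controls in the first 2, so the comparisons are not independent of each other. Scaling by library size alone left all calls of the 9 genes in place, but moved the median of all genes by -0.24 in hepatectomy against control. The calls over all genes then split 626 higher to 1566 lower rather than 838 to 326. In depleted against control they split 2884 to 1471 rather than 2614 to 2078, and in depleted against hepatectomy 3102 to 610 rather than 1837 to 1399.

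Sex was examined within the controls, where both sexes had 3 livers. Of the 8 genes tested (Mzb1 did not pass the filter there), 0 were called different between female and male controls by edgeR, 0 had an unadjusted p under 0.05, and DESeq2 called 0. Over all genes 0.354% were called higher in females and 0.384% lower. The log2 difference, female minus male, was above 0 for the 7 B cell genes, from 0.07 ± 0.50 for Fcrla to 0.83 ± 0.54 for Pax5, and was -0.33 ± 0.36 for Jchain. These values do not show that the sexes had equal levels.

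Levels per kilobase of exon, from the lengths in the deposited table, allow the genes to be ranked against each other. In controls Cd79b led at 0.817 ± 0.302 CPM per kb (SD, n = 6), followed by Cd79a at 0.772 ± 0.305 and Jchain at 0.549 ± 0.115. Then came Cd22 (0.366), Fcrla (0.26), Mzb1 (0.177), Ms4a1 (0.147), Pax5 (0.112) and Blk (0.101), and the ranges of every pair of neighbours in that order overlapped. In depleted livers Jchain moved to the top at 8.58 ± 3.69 CPM per kb (SD, n = 4), ahead of Cd79a at 4.7 ± 2.0, Cd79b at 4.28 ± 1.0 and Mzb1 at 2.73 ± 0.747. Cd22 (2.27), Fcrla (range 0.638 to 1.89), Ms4a1 (0.848), Pax5 (0.462) and Blk (0.451) followed, and only Ms4a1 and Pax5 were neighbours without overlap. After hepatectomy Cd79b (0.524), Cd79a (0.477) and Jchain (0.294 CPM per kb) led again. Fcrla (0.167), Mzb1 (0.165), Cd22 (0.146), Ms4a1 (0.0507) and Blk (0.045) came next, and Pax5 was last at 0.0181 ± 0.011 CPM per kb (SD, n = 3), below Blk without overlap.

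The rest of the B cell programme was read from lists of genes. Of 16 genes of B cell receptor signalling, 14 rose in depleted livers and 0 fell, with a median log2 fold change of 2.44. The exchange factor Vav1 rose by 2.76 ± 0.46 (edgeR adjusted p 0.000691) and the adaptor Dapp1 by 2.7 ± 0.41 (0.000325). Many of these genes also serve other leukocytes. After hepatectomy 0 of the 16 rose. Of 14 mature B cell surface genes, 13 could be tested and all 13 rose in depleted livers, with a median of 2.87. Of the 13, Tnfrsf13c, the receptor for Baff, entered the test only through the depleted livers. Spn (CD43), which T cells and other leukocytes carry and which does not single out B cells, rose by 4.28 ± 0.37. The costimulatory receptor Cd40 rose by 3.64 ± 0.54 and H2-Ob, a regulator of peptide loading in B cells, by 3.19 ± 0.38. After hepatectomy Fcer2a, the low-affinity IgE receptor CD23, fell at -2.33 ± 0.54 (edgeR adjusted p 0.0206), and the other 12 did not pass.

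Of 11 transcription factors of the B lineage, 8 rose in depleted livers and 0 fell, with a median of 2.34. The Ikaros family member Ikzf3 rose by 3.61 ± 0.47, the octamer coactivator Pou2af1 by 3.58 ± 0.36 and Irf8, which also acts in myeloid cells, by 3.52 ± 0.33. After hepatectomy Spib, an Ets factor of B cells and plasmacytoid dendritic cells, fell at -1.34 ± 0.34 (edgeR adjusted p 0.0276). Of 7 genes of precursor B cells only 2 were tested and 0 were called in either comparison with controls, and Rag1, Rag2, Igll1 and Vpreb2 had 0 or 1 count in every library. Rag1 and Rag2 cut the immunoglobulin loci for rearrangement. Dntt, the polymerase that adds bases at those joints, was at 1.45 ± 1.28 CPM (SD, n = 4) in depleted livers and 0.659 ± 0.405 (SD, n = 6) in controls, which did not pass (edgeR adjusted p 0.232). After hepatectomy Dntt was at 2.12 ± 0.41 CPM (SD, n = 3), above every control, with a log2 fold change of 1.81 ± 0.64 that did not pass either (edgeR adjusted p 0.1). Of 6 germinal centre genes 3 were tested and 2 rose in depleted livers, Gcsam by 3.68 ± 0.79 and the death receptor Fas, which many cell types carry, by 1.06 ± 0.21. Gcsam reached the filter's level in 1 of 6 controls and 0 of 3 hepatectomy livers, so it entered the test only through the depleted livers and had to differ. Fas also rose after hepatectomy, by 1.36 ± 0.23 (edgeR adjusted p 0.00476).

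Of 10 genes of the plasma cell programme 9 were tested, and 2 rose in depleted livers, a share near the 18.9% of all genes called higher, with a median log2 fold change of 0.17 over the 9. Prdm1 (Blimp-1), the factor that drives plasma cell differentiation, rose by 3.27 ± 0.34 (edgeR adjusted p 2.14e-05), and Irf4, which acts with it, by 2.38 ± 0.49 (0.00229); T cells and macrophages also use both. The remaining 7 tested genes did not pass, among them secretory pathway genes that hepatocytes express at high levels. Xbp1, for instance, stood at 233 ± 52.1 CPM (SD, n = 6) in controls and Sdc1 at 188 ± 46.3. None of the 9 passed after hepatectomy. Of the 12 immunoglobulin constant region genes of the list, 0 were found by symbol in the count table, so they could not be analysed. Of 11 genes for B cell survival or homing signals, 8 were tested and 3 rose in depleted livers, beside 18.9% of all genes called higher; without Cd40lg, which the filter kept through the depleted livers alone, 2 of 7 rose. The T cell ligand Cd40lg had a log2 fold change of 2.77 ± 0.84, April (Tnfsf13) of 2.47 ± 0.37 and Baff (Tnfsf13b) of 1.07 ± 0.34 (edgeR adjusted p 0.0225, 0.000309 and 0.0292). The Cd40lg and Tnfsf13b ranges overlapped those of the controls, and Cd40lg had 0 to 5 counts per control.

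**Figure D3:**
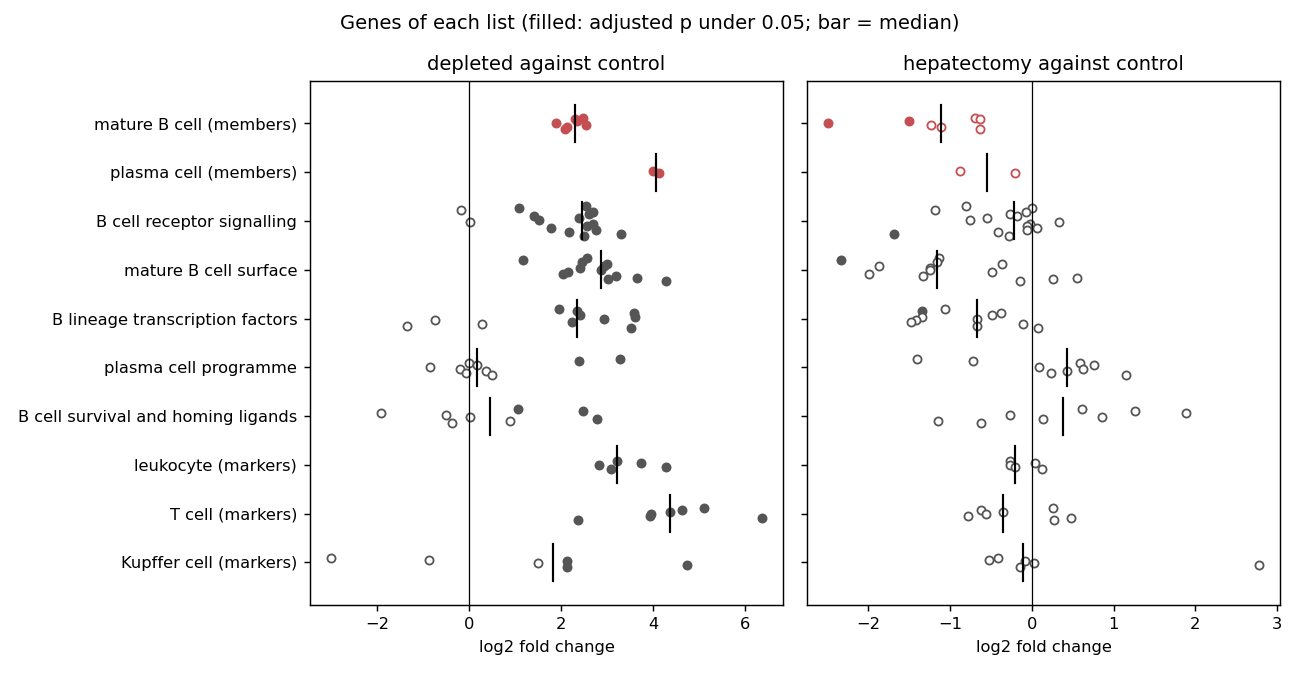
Log2 fold change of each tested gene in the members, in related lists and in 3 lists of leukocyte, T cell and Kupffer cell markers, for depleted (left) and hepatectomy (right) against control livers. Filled points have an edgeR adjusted p under 0.05 and bars are medians; in depleted livers the mature B cell members and the lists of receptor signalling, surface and transcription factor genes centre between 2.31 and 2.87 and the T cell markers at 4.38.

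Markers of other blood cells moved with the 9 genes in depleted livers. All 7 T cell markers rose, Cd8a having entered the test only through the depleted livers, with a median log2 fold change of 4.38, and their summed level was 40 to 95.6 CPM in depleted livers against 3.1 to 5.55 CPM in controls and 3.27 to 5.32 CPM after hepatectomy. All 5 general leukocyte genes rose, with a median of 3.21 and sums of 278 to 553 CPM against 12.8 to 59.6 CPM in controls. All 5 tested monocyte and neutrophil markers rose (median 6.03; 181 to 301 CPM against 2.4 to 9.09), as did 3 of 6 Kupffer cell markers (570 to 1290 CPM against 52.2 to 465). The Kupffer cell markers did not all point one way: Clec4f had a log2 fold change of -3.0 ± 1.26 and Vsig4 of -0.88 ± 0.60, neither past the test (edgeR adjusted p 0.0872 and 0.287). Of 8 markers of plasmacytoid dendritic cells, which share several genes with B cells, 6 were tested. Lair1 rose by 3.30 ± 0.49 on the log2 scale. Pacsin1 and Ccr9, with values of 3.50 and 3.18, were also called but entered the test only through the depleted livers. The defining marker Siglech fell, with a log2 fold change of -2.63 ± 0.72 (edgeR adjusted p 0.013) and overlapping ranges, from a mean of 0.484 CPM in controls to 0.0863 CPM. The summed level of all 8 was 136 to 358 CPM in depleted livers and 110 to 145 CPM in controls. Most of that sum was Bst2, which was not called, with means of 162 CPM in depleted livers and 111 CPM in controls. The erythroid marker Slc4a1 rose by 6.41 ± 0.90 on the log2 scale, while Alas2 did not pass the test (-0.20 ± 0.47), and the summed level of 7 erythroid markers ranged from 69.5 to 639 CPM in depleted livers against 121 to 375 CPM in controls. After hepatectomy 0 of the leukocyte, T cell and Kupffer cell markers passed the test, and of the monocyte and neutrophil markers S100a8 and S100a9 rose, both with a log2 fold change of 4.51. The part of any of these cells in the levels of the 9 genes was not tested.

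Set against the 5 general leukocyte genes, the 9 genes did not keep pace evenly. Pax5 had 14.2 to 27.3 counts per 1000 leukocyte counts in controls, with a median of 23.3. It had 13.4, 14.0, 5.53 and 8.94 in depleted replicates 1 to 4 and 2.97, 2.97 and 6.28 after hepatectomy. Every liver of both other groups thus lay below every control for Pax5. Cd22 had 32.3 to 58.4 in controls (median 41.9), 28.8, 28.5, 19.8 and 30.7 in depleted livers and 15.8, 10.4 and 26.4 after hepatectomy, again below all controls. Fcrla had 7.07 to 21 in controls and 3.31 to 5.96 in depleted livers, also without overlap. On this scale 87.4% of all genes tested lay below all controls in every depleted liver, so these 3 of the 9 are fewer than that background. The reading for hepatectomy differs, since 1.24% of all genes tested lay below all controls there and Pax5 and Cd22 were 2 of the 9. Without control replicate 6 and hepatectomy replicate 2 the share of all genes was 5.75% after hepatectomy and 88.1% in depleted livers, and the same members lay below all controls. The other 6 genes overlapped with controls in depleted livers. Jchain had 64.4, 67.7, 63.1 and 21.5 counts per 1000 leukocyte counts in depleted replicates 1 to 4, against 14.7 to 124 in controls. The 124 was control replicate 6, and without it the controls ran from 14.7 to 37.7. Cd3e, the T cell receptor chain taken for comparison, ran from 14.7 to 26.4 in depleted livers and from 3.38 to 16.4 in controls, or 3.38 to 12.8 without control replicate 6, which leaves no overlap. These ratios are descriptions without a test.

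**Figure D4:**
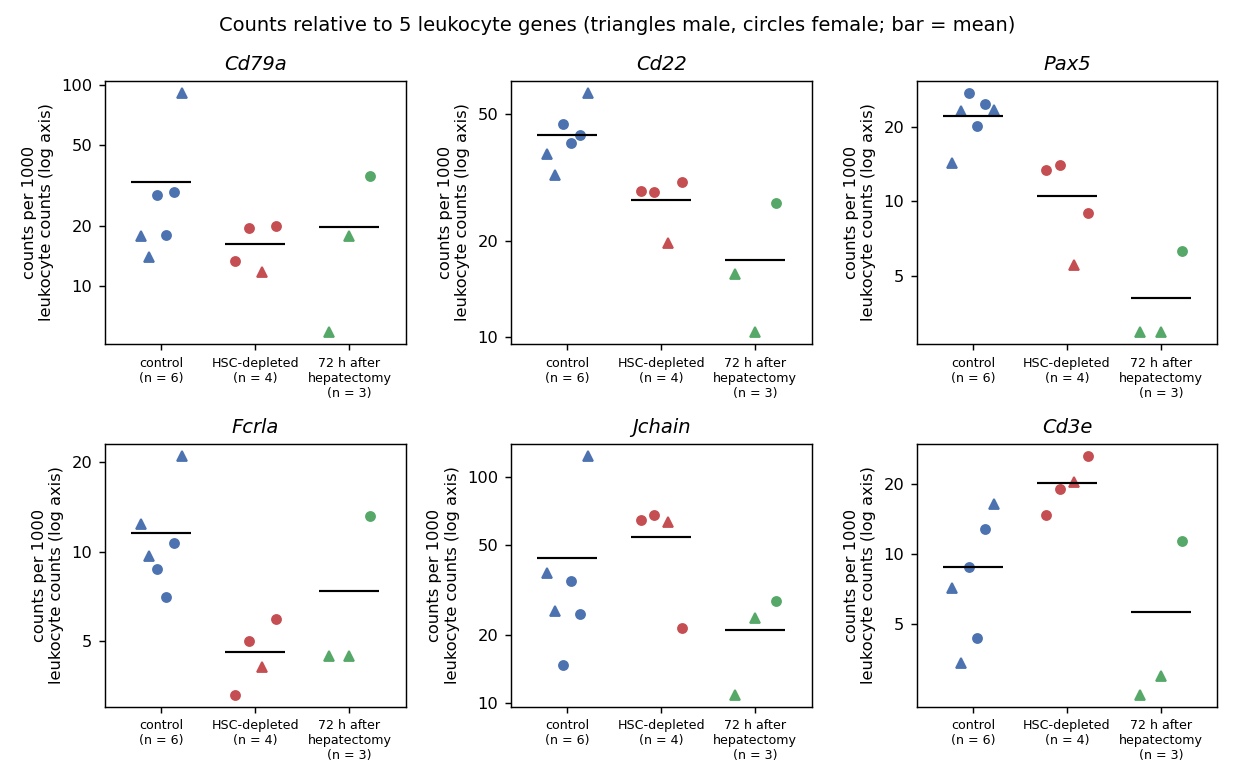
Counts of 5 of the 9 genes and of the T cell gene Cd3e per 1000 counts of 5 general leukocyte genes in each liver, on log axes. Triangles are male and circles female livers, bars are means; Pax5, Cd22 and Fcrla are lower in all 4 depleted livers than in all controls, and control replicate 6 is the highest control for Cd79a, Cd22, Fcrla, Jchain and Cd3e.

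Ratios between members showed how the balance of B cell, plasma cell and T cell transcripts varied among livers. Jchain counts per Cd79a count were 4.79, 3.48, 5.33 and 1.07 in depleted replicates 1 to 4. They were 0.514 to 2.13 in controls (median 1.595) and 0.804 to 1.83 after hepatectomy. Depleted replicate 4 thus lay within the control range and the other 3 above it. This liver also had the highest level in its group of Cd79a, Cd79b, Pax5, Cd22, Blk and Fcrla, the lowest of Jchain, and the most stellate cell marker RNA left (47.2 CPM against 13.5 to 18.3 CPM). Cd79a counts per Cd3e count were 0.583 to 1.03 in depleted livers, below the 2.3 to 5.57 in controls and the 2.4 to 6.0 after hepatectomy.

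The genes differed in how they varied within groups. Over the 13 livers with each group's mean taken away, 6 of the B cell genes (all but Blk) had pairwise Pearson correlations of 0.43 to 0.86, with a median of 0.71 over 15 pairs. Blk had -0.03 to 0.28 with those genes, Jchain -0.40 to 0.20 with the 7 B cell genes and Mzb1 -0.18 to 0.42. All genes of a library share its depth and scaling, and these values are a description. They include both livers that stood apart, and sex was not removed. The genes most like the mean of the 7 B cell genes across the 13 livers were Fcrl1 (r = 0.982), H2-DMb1 (0.981), H2-Ab1 (0.978), Cd74 (0.978), Chst3 (0.977), H2-Aa (0.977), H2-Eb1 (0.976) and Gimap1 (0.975). Fcrl1 is an Fc receptor-like protein of B cells, and 5 of the others belong to MHC class II antigen presentation. With group means taken away the first 3 were Lsamp (0.966), Gimap3 (0.925) and Fcho1 (0.922). The genes most like Jchain were Gpr55 (0.969), Tlr11 (0.969), Trafd1 (0.968), Samhd1 (0.968), Slamf7 (0.966), Ccl5 (0.966), Irf1 (0.961) and Ubash3a (0.960). With group means taken away Ell2, an elongation factor that plasma cells use in making secreted antibody, came first at 0.883, followed by Setdb2 (0.870) and Zxdc (0.869).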

How the data were processed

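RNA was sequenced from 13 whole mouse livers. Per the labels' protocols, it was extracted with TRIzol and made into stranded TruSeq mRNA libraries from 500 ng. STAR 2.7.1a, SAMtools 1.15.1, featureCounts 1.6.4 and the mm10 build are named in the submitters' processing notes; counting options and annotation are not given in the sources used here. The authors deposited raw read counts per gene with gene lengths; 307 of 22048 identifiers had no symbol, and no other libraries are in the table. No 2 libraries of the same group agreed within sampling noise (lowest median chi-square per gene 4.602, where a resequenced library gives 0.45). Libraries of different groups were not compared in this way.

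Counts were fitted with edgeR 4.0.16 in R 4.3.3 (TMM scaling, filterByExpr with 10 counts at the median library, robust quasi-likelihood F-test, two-sided) as group plus sex over all 13 livers. Benjamini-Hochberg adjustment ran over 13831 genes, with calls at an adjusted p under 0.05. The standard error is the size of the log2 fold change divided by the square root of F. DESeq2 1.42.0, limma 3.58.1 (voom), other scalings, filters and subsets of libraries were alternatives, and the fit was tested on simulated data. All 9 members are reported; listed genes are named by size of change (up to 3 called genes per list) or, with none called, by level, and genes most alike by the 8 highest correlations. Rag1, Rag2, Igll1, Vpreb2, Siglech, Tnfrsf13c, Clec4f, Vsig4 and Alas2 were named after their values were seen, and a few genes that the naming rule would give are not reported here. The members and lists were chosen with earlier results of these data known.

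Replicate numbers were checked for pairing. Deviations from group means of same-numbered hepatectomy and control livers correlated at 0.229, 0.107 and 0.523, but each such pair is of the same sex. With sex also removed they correlated at 0.084, -0.191 and -0.048. The labels name no shared litter, batch or day. Same-numbered depleted and control livers correlated at -0.34 to 0.073. The blocked value stands beside the result where it changes a call. Protein sequences were not used here.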

Additional observations from a re-analysis of the deposited data

How the results depend on the processing

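In depleted against control livers all 9 genes were called higher under every alternative that tested them, and all 188 values of single genes kept their direction and call; Jchain ranged from 3.62 to 4.19 on the log2 scale. In depleted against hepatectomy livers all genes tested were called higher (9, or 8 of 8 with a filter of 1 CPM in 3 libraries) except in females alone, where 1 hepatectomy liver is left, assumed to vary like the other groups, and 5 were called. In hepatectomy against control livers 2 genes were called lower. This count was 1 without the sex covariate, with only the 2 groups fitted, with limma-voom, and without both control replicate 6 and hepatectomy replicate 2. It was 0 in females alone, 3 with DESeq2, and 1 to 3 when each liver was left out in turn. With the replicate block it was 1 (Pax5 at -2.72, adjusted p 0.0346), and 632 genes of the whole table were called, against 1164; Ms4a1 lost its call and the block changed no other call of the 9 genes in that comparison or the other 2. Values that changed sign, none of them called, were Cd79a 0.06, Cd79b 0.09 and Fcrla 0.18 in females alone, Mzb1 0.06 with limma-voom and 0.13 without hepatectomy replicate 2, and, female against male, Fcrla -0.01, -0.13 and -0.18 without control replicates 3, 5 and 6. With single livers left out, Mzb1 after hepatectomy ranged from -0.72 to 0.13 and Fcrla, female against male, from -0.18 to 0.31. The cause was not tested, beyond the smaller number of livers in those fits.

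Counts over the whole table moved by more than 1.5 times as follows. Hepatectomy against control gave 1164 calls, but 2192 with library size alone, 1939 with DESeq2, 692 and 742 without control replicates 1 and 2, 483 without hepatectomy replicate 2, 412 without both livers that stood apart and 90 in females alone. Depleted against control gave 4692, but 2726 in females alone and 2960 without depleted replicate 3, the only male. Depleted against hepatectomy gave 3236, but 2105 with only the 2 groups, 1263 in females alone and 1709 without depleted replicate 3. Female against male controls gave 96, but 449 with DESeq2, and 32 to 200 without single controls. Depth limits Blk, Mzb1 and Pax5 most, at 2 to 10 counts per hepatectomy liver.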
